A study of Mus musculus with 15 samples.

Results

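The 6 NMDA receptor subunit genes Grin1, Grin2a, Grin2b, Grin2c, Grin2d and Grin3a and the serine racemase gene Srr were described in RNA of male C57BL/6 mice, taken as micropunches of medial prefrontal cortex. They were taken by gene symbol from a deposited table of TPM values (abundances per unit of transcript length, relative to the whole library), where all 7 were found among 54727 genes. The KO libraries (n = 8) came from Df(h15q13)/+ mice, heterozygous for loss of the chromosome 7 segment that matches the human 15q13 microdeletion. The WT libraries (n = 7) came from wild-type littermates, and both groups were 8 to 10 weeks old. The study asked what this deletion does to gene expression in cortex, with emphasis in its title on astrocytes and on excitatory and inhibitory synapses.

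NMDA receptors are glutamate-gated channels that pass calcium and set off synaptic plasticity. Each receptor holds obligatory GluN1 subunits, encoded by Grin1, together with GluN2 subunits from Grin2a to Grin2d or GluN3 subunits from Grin3a and Grin3b. Opening needs glutamate at GluN2 and a co-agonist, glycine or D-serine, at GluN1, and serine racemase makes D-serine from L-serine. In forebrain GluN2B is the main form early in life and GluN2A gains ground as the cortex matures.

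The group sizes follow the sample titles; the design text of the series gives the numbers the other way round. Chrna7, Otud7a, Klf13, Mtmr10 and Fan1, the deleted genes tested, stood at 38.7% to 48.4% of the WT mean, and for none of the 5 did the ranges of KO and WT libraries overlap. Depth is unknown, since TPM does not keep it, and the spread between libraries gives the precision. Each library held 18374 to 18747 genes at 1 TPM or more in KO and 18439 to 18640 in WT. The libraries were taken as separate mice from the stated numbers of animals; no label names individual animals, so p-values measure the spread between libraries. KO 1 stood apart, with a score of 51.8 on the leading principal component (19.3% of the variance), where the remaining KO libraries scored -4.33 to 20.5 and WT libraries -30.0 to 4.27. The summed TPM of 12 oligodendrocyte markers reached 1002 in KO 1 and 1479 in KO 8, while the remaining 6 KO libraries had 301 to 444 and WT libraries 437 to 599.

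Promoter windows of Grin1, whose transcript was the most abundant of the 7, and of Srr, the one enzyme gene, are printed to show how unlike their GC-box content is. They come from RefSeq (GRCm38.p6, the same build as mm10) and run from 250 bases before to 30 bases after the annotated start, on the minus strand. Capitals mark the GC box, searched as GGGCGG and as its reverse complement CCGCCC, the motif bound by Sp1 and Sp4.
Grin1, chr2:25319158-25319437: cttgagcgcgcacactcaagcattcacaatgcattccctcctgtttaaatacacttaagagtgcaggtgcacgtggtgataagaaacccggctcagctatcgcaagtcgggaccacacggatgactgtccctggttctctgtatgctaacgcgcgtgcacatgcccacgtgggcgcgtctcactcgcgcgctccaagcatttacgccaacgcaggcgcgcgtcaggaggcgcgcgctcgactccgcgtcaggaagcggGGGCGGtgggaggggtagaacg
Srr, chr11:74925919-74926198: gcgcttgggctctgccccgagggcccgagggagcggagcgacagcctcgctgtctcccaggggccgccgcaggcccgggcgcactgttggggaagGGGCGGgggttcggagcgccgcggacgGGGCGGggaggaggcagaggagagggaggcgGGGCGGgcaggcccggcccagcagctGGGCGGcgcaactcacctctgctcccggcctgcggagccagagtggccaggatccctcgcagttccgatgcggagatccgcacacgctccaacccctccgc

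The Grin1 window held 1 GC box and the Srr window 4, and each held 30 CpG dinucleotides, more than 90.8% of 32851 windows of the same length. Of all these windows 34.7% held at least 1 GC box. RefSeq entries matched 4 of the 7 genes. The Grin2c window (chr11:115267214-115267493) held 3 GC boxes, of which 2 overlap by a base. The Grin2d window (chr7:45866652-45866931) held none, and its RefSeq start lies inside the longer GENCODE M21 gene. A match describes letters in a window and is not a measured binding site.

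None of the 7 genes differed between KO and WT cortex past the test. All 7 reached the mean of 1 TPM needed to be tested, together with 18655 genes in all, and 0 of 7 passed (limma on log2(TPM + 1), two-sided, Benjamini-Hochberg adjusted p from 0.467 to 0.985). Of all tested genes 0.0268% passed, namely the 5 deleted ones. At an unadjusted limma p under 0.05 there were 0 of the 7 genes, against 11.9% of all tested genes. That count rests on the full set of libraries: without KO 6 the unadjusted p of Grin2c was 0.0361, and without KO 5 that of Grin2a was 0.0497, with limma adjusted p-values of at least 0.320 and 0.394 for these genes over all fits without 1 library. KO means were lower for Grin1, Grin2a, Grin2b, Grin2c and Grin3a and higher for Grin2d and Srr, and 45.3% of all tested genes were lower. The median log2 fold change of the 7 genes was -0.10, beside 0.02 over all tested genes. KO and WT ranges overlapped for all 7 genes, and the share of all tested genes with such an overlap is not given here. In the same libraries 9 pan-neuron markers summed to 5027 to 6955 TPM in KO and 5343 to 6340 TPM in WT. In bulk tissue fewer cells of a type and less RNA per cell cannot be told apart.

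**Figure D1:**
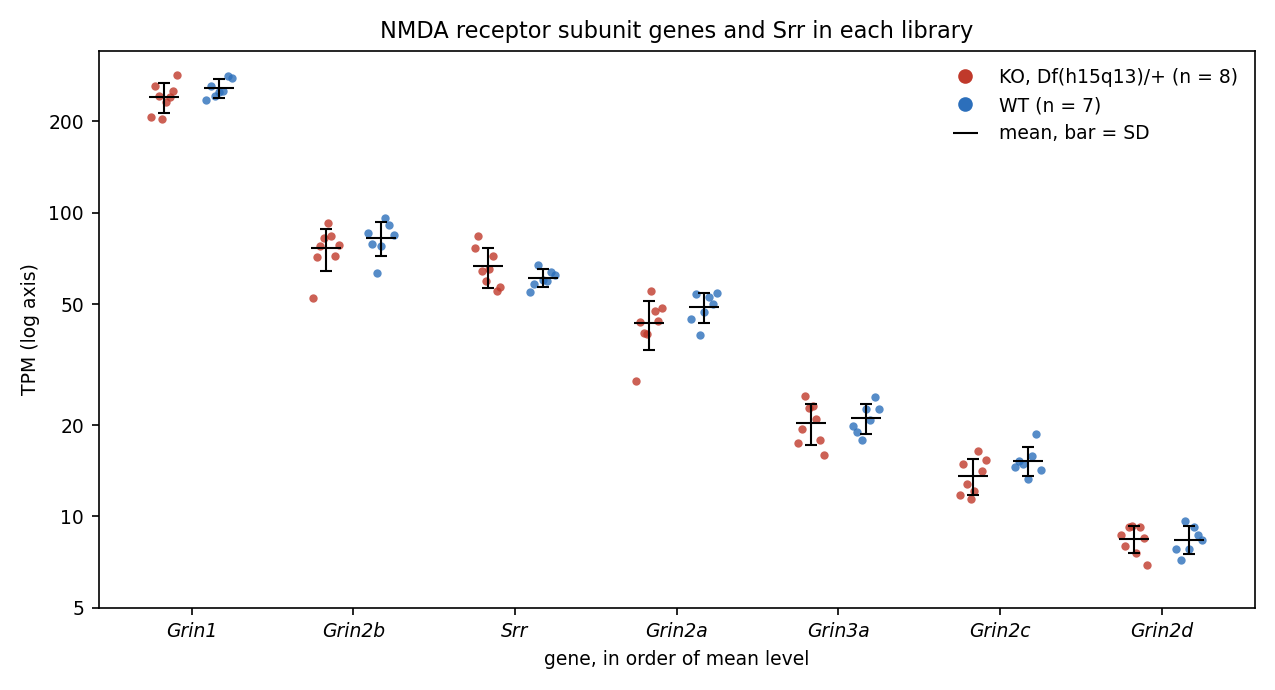
TPM (log axis) of the 7 genes in each of 8 KO libraries (red, left of each pair) and 7 WT libraries (blue), with mean and SD. The genes run from Grin1, at 203 to 284 TPM, down to Grin2d, at 6.92 to 9.66 TPM, and the groups overlap for every gene.

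Grin1 encodes GluN1, without which no NMDA receptor reaches the surface (ENSMUSG00000026959, chromosome 2, 25291181 to 25319187, minus strand, mm10). Its lowest, median and highest values were 203, 241 and 284 TPM in KO libraries, against 235, 251 and 283 TPM in WT libraries. KO 4, KO 1 and KO 5 lay below every WT library and KO 8 just above the highest, and 6 of 8 KO libraries lay below the WT mean. The means were 240 ± 27.0 TPM (SD, n = 8) in KO and 257 ± 18.2 TPM (SD, n = 7) in WT, or -0.10 ± 0.07 (SE) as log2 fold change (adjusted p = 0.55, limma). The limma 95% interval of the fold, not adjusted for the number of genes, ran from 0.837 to 1.04. The antisense gene Grin1os covers 13.5% of the exonic bases of Grin1 and was listed at 19.9 TPM in KO and 20.6 TPM in WT; no strand setting is stated, so reads on the shared bases cannot be assigned to either gene.

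Grin2a encodes GluN2A, the subunit of mature synapses (ENSMUSG00000059003, chromosome 16, 9567898 to 9995560, minus strand). Its lowest, median and highest values were 27.9, 43.9 and 55.3 TPM in KO libraries, against 39.6, 49.97 and 54.4 TPM in WT libraries. Both the lowest and the highest value of all libraries were KO ones, KO 1 and KO 5, and 7 of 8 KO libraries lay below the WT mean. The log2 fold change was -0.18 ± 0.12 (SE; limma adjusted p = 0.509), the largest in size of the 7, with a 95% interval of the fold from 0.743 to 1.04. Without KO 1 it was -0.10 (adjusted p = 0.771).

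Grin2b encodes GluN2B, the subunit that dominates before birth and is still abundant in adult forebrain (ENSMUSG00000030209, chromosome 6, 135713233 to 136173511, minus strand). The KO values had a minimum of 52.5, a median of 78.1 and a maximum of 92.8 TPM, against 63.2, 84.8 and 96.3 TPM in WT libraries. KO 1 was again the lowest library, and WT 3 the lowest WT library, as it was for Grin2a. The log2 fold change was -0.12 ± 0.11 (SE; limma adjusted p = 0.65), and -0.04 without KO 1 (adjusted p = 0.912) and -0.18 without WT 3 (adjusted p = 0.443).

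Grin2c encodes GluN2C, a subunit of cerebellar granule cells that is also found in cortical astrocytes (ENSMUSG00000020734, chromosome 11, 115249169 to 115267243, minus strand). The KO libraries lay between 11.4 and 16.4 TPM with a median of 13.4 TPM, and the WT libraries between 13.3 and 18.6 TPM with a median of 14.8 TPM. In KO, 4 libraries (KO 1, KO 3, KO 4 and KO 5) were below every WT library, and WT 6 was above every KO library. The log2 fold change was -0.16 ± 0.09 (SE), the lowest unadjusted p of the 7 at 0.0905 (limma adjusted p = 0.467). Beside it, 13 of 15 astrocyte markers had lower KO means of log2(TPM + 1), against 45.3% of all tested genes. Of these markers 9 were lower at an unadjusted limma p under 0.05, beside 11.9% of all tested genes in either direction. Of the 15 markers 0 passed the test over all genes. Their summed level was 2109 to 2739 TPM in KO and 2473 to 3220 TPM in WT, with no marker at 0. Lower values were not particular to astrocytes. By the sign of the log2 fold change 12 of 12 endothelial, 10 of 10 mural and 10 of 12 oligodendrocyte markers were lower. Of 14 excitatory neuron markers 5 were lower. The oligodendrocyte markers had a median log2 fold change of -0.05, and 0 of them had an unadjusted limma p under 0.05. Their summed TPM averaged 587 in KO and 530 in WT, with KO 1 and KO 8 the highest libraries. The part of the astrocyte markers in the Grin2c value was not tested.

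Grin2d encodes GluN2D, a slowly closing subunit found in cortical interneurons (ENSMUSG00000002771, chromosome 7, 45831883 to 45878378, minus strand). It is the one member on the chromosome of the deletion, 17.2 Mb from the start of Chrna7. The KO libraries ran from 6.92 through a median of 8.56 to 9.31 TPM, against 7.17, 8.35 and 9.66 TPM in WT libraries. The groups covered nearly the same range, and the log2 difference was 0.00 ± 0.08 (SE), with a limma adjusted p of 0.985 and a 95% interval of the fold from 0.895 to 1.12. The sign of this value turned to -0.01 under median-of-ratios scaling. The antisense gene Gm45441 shares 9.66% of the exonic bases of Grin2d and was itself at 16.2 TPM in KO and 15.8 TPM in WT, so part of the Grin2d reads cannot be assigned with certainty. Of 14 inhibitory neuron markers 11 were lower in KO, beside 45.3% of all tested genes, and 0 passed the test over all genes (limma). Their summed level was 942 to 1473 TPM in KO and 1173 to 1380 TPM in WT. The part of the inhibitory neuron markers in the Grin2d value was not tested.

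Grin3a encodes GluN3A, a glycine-binding subunit that lowers calcium entry through the receptor (ENSMUSG00000039579, chromosome 4, 49661611 to 49845744, minus strand). Its lowest, median and highest values were 15.9, 20.1 and 24.8 TPM in KO libraries, against 17.8, 20.7 and 24.7 TPM in WT libraries. KO 8, KO 1 and KO 7 were low and KO 3 was high, so that the KO libraries covered the whole WT range. The log2 fold change was -0.06 ± 0.10 (SE; limma adjusted p = 0.808), and with KO 1 and KO 8 left out it was 0.03 (adjusted p = 0.926). Grin3b, which encodes the other GluN3 subunit and is known mainly from motor neurons, was listed at 0.0169 to 0.141 TPM in KO and 0.00 to 0.183 TPM in WT and was too low to be tested.

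Srr, the D-serine producing enzyme gene, had the highest KO mean relative to WT of the 7 (ENSMUSG00000001323, chromosome 11, 74906359 to 74925948, minus strand). The KO libraries had a minimum of 55.3, a median of 64.7 and a maximum of 83.7 TPM, against 54.8, 60.2 and 67.4 TPM in WT libraries. KO 2, KO 1 and KO 6 lay above every WT library, while the other 5 KO libraries lay inside the WT range. The SD was 10.0 TPM in KO (15.1% of the mean) and 4.10 TPM in WT (6.73% of the mean). The log2 fold change was 0.12 ± 0.09 (SE; limma adjusted p = 0.56), with a 95% interval of the fold from 0.957 to 1.23. Without KO 2 it was 0.07. Tsr1, a ribosome assembly gene on the opposite strand, shares 27.2% of the exonic bases of Srr and was at 38.7 TPM in KO and 40.6 TPM in WT, and Smg6 shares 2.76%. As no strand setting is stated, reads on the shared bases cannot be assigned to Srr with certainty.

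**Figure D2:**
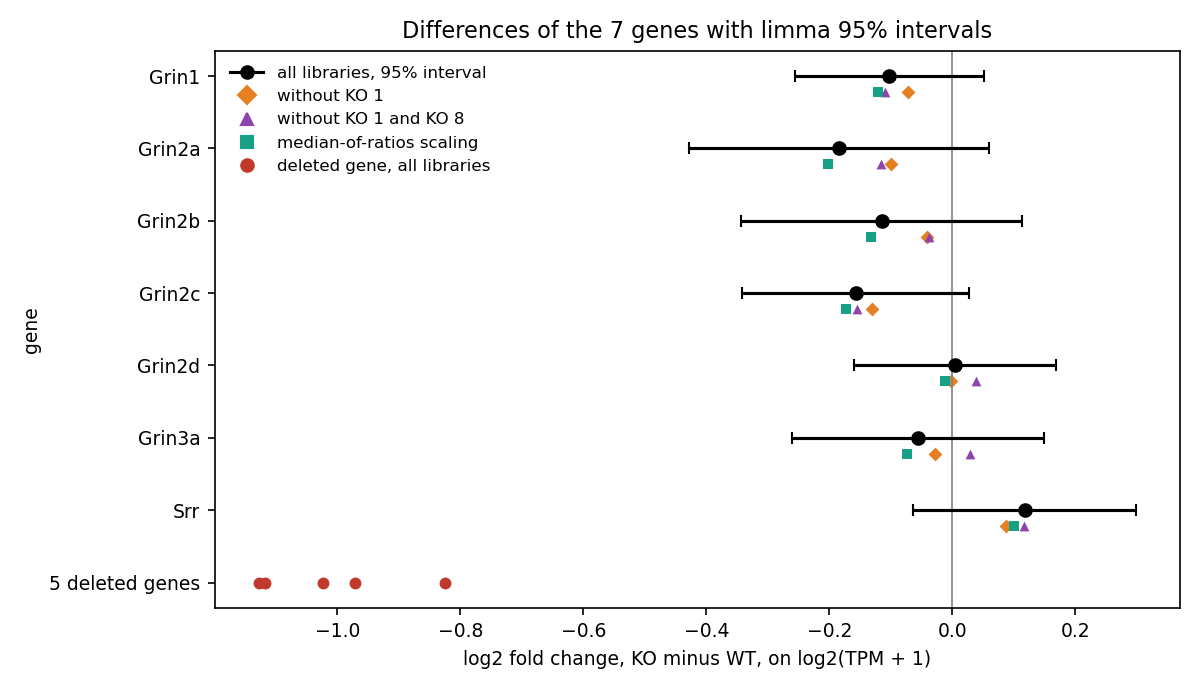
Log2 fold changes, KO minus WT, of the 7 genes on log2(TPM + 1) with limma 95% intervals (black), beside the values without KO 1, without KO 1 and KO 8 and under median-of-ratios scaling, and the 5 deleted genes (red). All 7 intervals cross 0 and lie between -0.43 and 0.30, while the deleted genes lie between -1.13 and -0.83.

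The intervals of the 7 genes reached at lowest a fold of 0.743 (Grin2a) and at highest 1.23 (Srr). A loss to the level of the deleted genes, at 38.7% to 48.4% of WT, lies outside every one of them.

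The order of the levels was the same in both groups. Since TPM is per length, the genes can be set beside each other, apart from reads on bases shared with other genes. Such bases are 27.2% of the exonic bases of Srr for Tsr1 alone, so its place is the least certain. Averaged over all 15 libraries, Grin1 was at 248 ± 24.1 TPM (SD), 3.13 times the level of Grin2b at 79.3 ± 11.4 TPM. Srr followed at 64.1 ± 8.16 TPM, Grin2a at 46.0 ± 7.31 TPM, Grin3a at 20.6 ± 2.75 TPM, Grin2c at 14.4 ± 1.91 TPM and Grin2d at 8.41 ± 0.842 TPM. Grin2b and Srr were the neighbours that could not be separated by library, with Grin2b above Srr in 6 of 8 KO and 6 of 7 WT libraries. For each of the other 5 neighbouring pairs the higher gene was above the lower one in all 8 KO and all 7 WT libraries.

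The balance of GluN2 transcripts overlapped in range between the groups. Which GluN2 subunits a receptor holds sets how fast it closes, but these shares are of RNA in bulk tissue and not of receptor protein. Grin2b made up 53.8 ± 2.14% (SD, n = 8) of the summed Grin2a to Grin2d TPM in KO and 53.1 ± 2.35% (SD, n = 7) in WT. Grin2a made up 30.4 ± 2.09% in KO and 31.6 ± 2.11% in WT. Grin2c held 9.71 ± 1.49% in KO and 9.87 ± 1.09% in WT, and Grin2d 6.08 ± 1.28% in KO and 5.47 ± 0.964% in WT. Shares of 1 sum are not independent of each other.

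**Figure D3:**
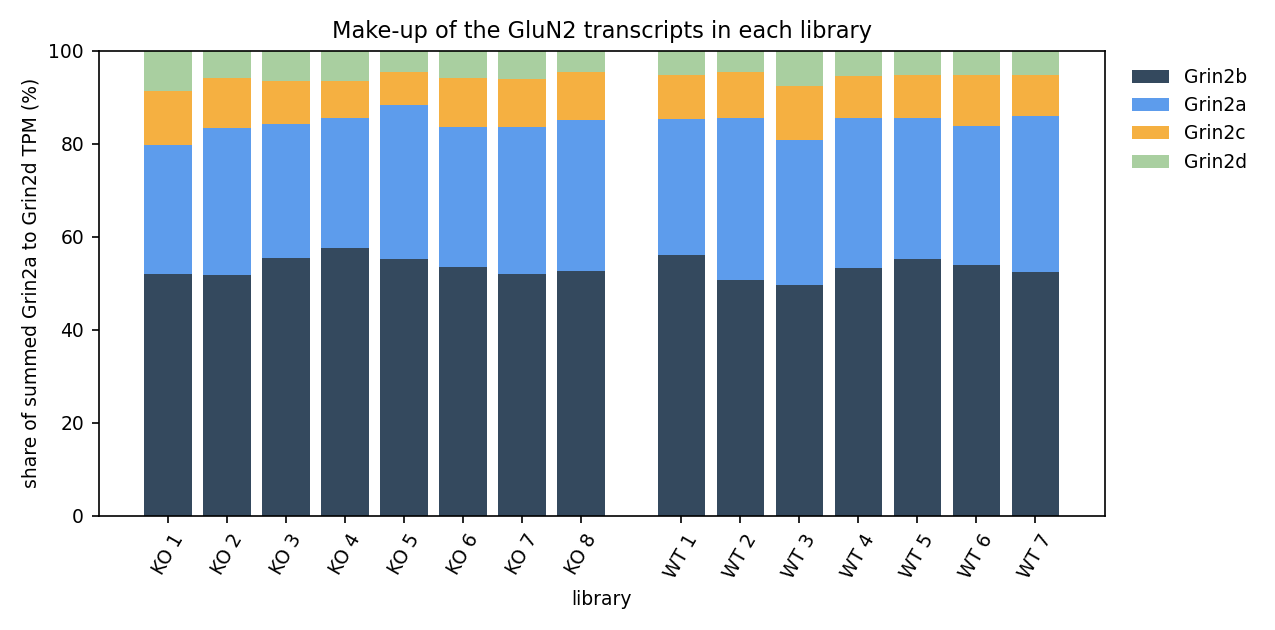
Share (%) of Grin2b, Grin2a, Grin2c and Grin2d in their summed TPM for each of 8 KO libraries (left) and 7 WT libraries (right). Grin2b is the largest share in every library, from 51.8% to 57.6% in KO and 49.7% to 56.2% in WT.

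Ratios between the genes within a library do not change with the scaling of that library, and 4 of them were compared. The Grin2a to Grin2b ratio was 0.567 ± 0.0507 (SD, n = 8) in KO and 0.597 ± 0.0603 (SD, n = 7) in WT, a log2 difference of -0.07 ± 0.07 (SE) whose exact permutation p, two-sided over 6435 splits, was 0.33 (0.747 adjusted over the 4 ratios). Grin1 relative to the summed GluN2 genes was 1.72 ± 0.244 in KO and 1.67 ± 0.146 in WT (exact permutation p = 0.727). Grin2c plus Grin2d relative to Grin2a plus Grin2b was 0.188 ± 0.0339 in KO and 0.182 ± 0.0269 in WT (exact permutation p = 0.747). Grin3a relative to the summed GluN2 genes was 0.145 ± 0.0240 in KO and 0.136 ± 0.0128 in WT (exact permutation p = 0.476). The adjusted p was 0.747 for all 4, and in each the direction was shared by at most 5 of 8 KO libraries.

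Among the 21 pairs of the 7 genes, Grin2a and Grin2b had the highest Pearson's r with all libraries in, but neither the highest rho nor the highest r without the 2 farthest libraries. With the mean of each group removed, Pearson's r was 0.826 over 15 libraries (permutation within groups, p = 0.00174, adjusted over 21 pairs 0.0365) and Spearman's rho was 0.525 (permutation p = 0.0586, adjusted 0.283). Without KO 1 alone r was 0.666, and without KO 1 and WT 3, the libraries farthest from the median of Grin2a, it was 0.435. Leaving out the extremes of Grin2a also narrows its range, which can itself lower r. How far the relation rests on these libraries therefore cannot be told from this drop. Grin2a and Grin2b are also the longest genes of the set, spanning 428 and 460 kb, and a part of gene length in their relation was not tested. Grin1 and Grin2c had an r of 0.705 and a rho of 0.729 (permutation p = 0.00619 and 0.00544, adjusted 0.0650 and 0.114), and an r of 0.594 without KO 4 and KO 8. The remaining 19 pairs had r between -0.425 and 0.600, none with an adjusted permutation p under 0.05. Srr had r between -0.391 and 0.284 with the 6 subunit genes. All genes of a library share its punch and its scaling.

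**Figure D4:**
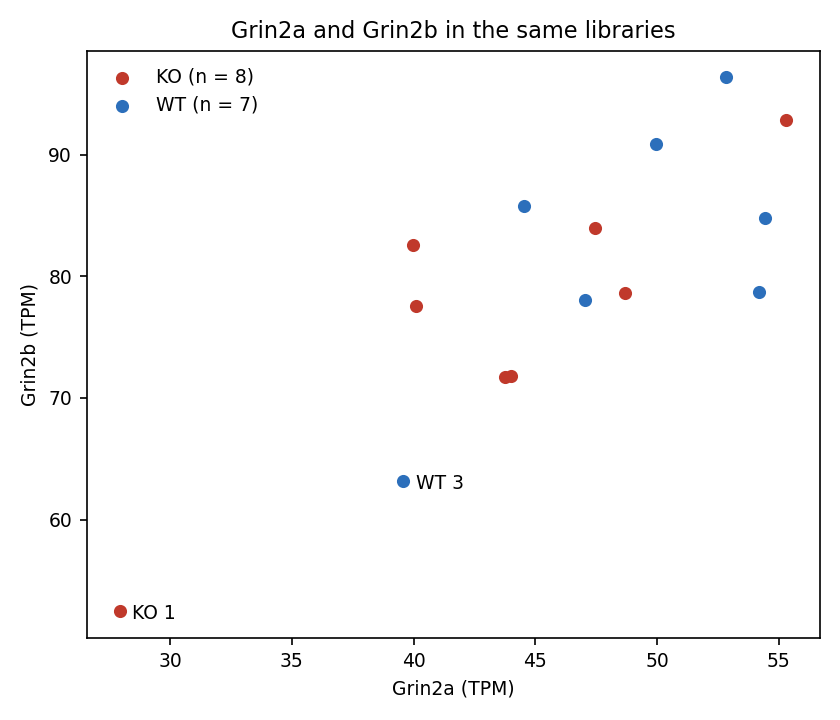
Grin2b against Grin2a (both TPM, linear axes that do not start at 0) in 8 KO (red) and 7 WT (blue) libraries. KO 1, at 27.9 and 52.5 TPM, and WT 3, at 39.6 and 63.2 TPM, are the low ends of their groups.

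The tested genes whose group-centred pattern over the 15 libraries was most like each member were then listed, 2 per member by Pearson's r. They were picked as the highest of all tested genes, so no p is given. For Grin1 these were the semaphorin gene Sema7a (r = 0.958, rho = 0.918) and Pld3 (r = 0.940, rho = 0.943). For Grin2a they were Prkca, a protein kinase C gene (r = 0.957, rho = 0.943), and the processed pseudogene Gm6501 (r = 0.953, rho = 0.864). Grin2b was followed most closely by Prrc2c (r = 0.950, rho = 0.911) and the pseudogene AC134468.1 (r = 0.950, rho = 0.918). The values of pseudogenes are uncertain, since they share sequence with other genes. For Grin2c the genes were Slco2b1, an organic anion transporter gene (r = 0.897, rho = 0.875), and Soga1 (r = 0.875, rho = 0.896). For Grin2d they were the RNA helicase gene Mov10 (r = 0.879, rho = 0.882) and Nrarp, a regulator of Notch signalling (r = 0.874, rho = 0.846). Grin3a was matched by Robo1, an axon guidance receptor gene (r = 0.926, rho = 0.911), and Rabgap1 (r = 0.911, rho = 0.914). Srr was matched by Preb (r = 0.926, rho = 0.875) and Chid1 (r = 0.879, rho = 0.871). Without the 2 libraries farthest from the member's median, r of these 14 pairs lay between 0.762 and 0.946.

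Genes that supply, hold and read the receptor were described in 8 lists, one of which holds Grin3b alone. Of 119 tested genes 0 passed over all genes (limma), 10 were lower and 7 were higher at an unadjusted p under 0.05, which is 14.3%, beside 11.9% of all tested genes. Their median log2 fold change was -0.04.

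Genes of D-serine and glycine supply and removal had a median of -0.06, with 12 of 16 tested genes lower, beside 45.3% of all tested genes. Gldc, a glycine cleavage gene, was at 10.1 ± 1.50 TPM in KO and 12.4 ± 1.32 TPM in WT (log2 fold change -0.28 ± 0.09 SE; limma adjusted p = 0.315). Gcsh, its partner in glycine cleavage, was at 33.9 TPM in KO and 30.7 TPM in WT (0.14, adjusted p = 0.447), and the glutamine and glycine transporter gene Slc38a5 had -0.48 (adjusted p = 0.433). Phgdh, the entry enzyme of L-serine synthesis, was at 14.9 ± 3.11 TPM in KO and 17.2 ± 1.24 TPM in WT (-0.22, adjusted p = 0.455). Slc7a10, which carries D-serine and glycine, had -0.05 and the glycine transporter gene Slc6a9 -0.02 (adjusted p = 0.822 and 0.962). Dao, the D-serine degrading oxidase gene, was listed at 0.118 TPM in KO and 0.192 TPM in WT, too low to be tested. Of the astrocyte markers 13 of 15 had lower KO means of log2(TPM + 1), beside 45.3% of all tested genes, and 0 passed the test (limma). Their part in these values was not tested.

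Genes listed as binding partners of serine racemase had a median of -0.14, with 5 of 6 tested genes lower, beside 45.3% of all tested genes. Gsk3b, a kinase gene, had 25.4 ± 8.71 TPM in KO and 48.0 ± 20.7 TPM in WT, each KO library being below the WT mean, and ranges of 13.4 to 44.0 TPM in KO and 29.3 to 91.0 TPM in WT (-0.86 ± 0.23 SE; limma adjusted p = 0.271). The PDZ scaffold genes Grip1 and Pick1 had -0.15 and 0.11 (adjusted p = 0.492 and 0.508). In the kynurenine pathway, which makes a blocker of the co-agonist site, 5 genes were tested, 2 were lower and the median was 0.02. Its transporter gene Slc7a5 had -0.16 (adjusted p = 0.398), and the aminotransferase genes Got2 and Kyat1 had 0.03 and -0.03 (adjusted p = 0.882 and 0.911).

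Of 22 scaffold genes of the receptor 18 were lower, beside 45.3% of all tested genes, and their median was -0.13. The unadjusted limma p was under 0.05 for 3 lower genes and 1 higher gene, beside 11.9% of all tested genes in either direction. Dlg4, which encodes PSD-95, was at 276 ± 17.4 TPM in KO and 305 ± 49.7 TPM in WT (-0.13; adjusted p = 0.543). Dlg1, which encodes SAP97, was at 71.4 ± 9.001 TPM in KO and 83.1 ± 10.2 TPM in WT, each KO library being below the WT mean (-0.22 ± 0.09 SE; adjusted p = 0.388). Dlgap2 had -0.20 and Actn2, an actin crosslinker gene whose product binds GluN1, had 0.22 (adjusted p = 0.409 and 0.404).

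Of 23 traffic and surface placement genes 14 were lower, beside 45.3% of all tested genes, with -0.05 as the median. The ephrin gene Efnb3 was at 55.2 ± 26.7 TPM in KO and 33.2 ± 8.64 TPM in WT (0.62 ± 0.24 SE; limma adjusted p = 0.377). Reln, a secreted interneuron protein gene, was at 19.1 ± 4.02 TPM in KO and 27.8 ± 13.3 TPM in WT (-0.45, limma adjusted p = 0.42). Its medians were 19.4 TPM in KO and 23.4 TPM in WT, with ranges of 10.7 to 23.7 and 16.2 to 56.4 TPM. Lin7a had -0.19 (limma adjusted p = 0.484). Kinases, phosphatases and calcium effectors had a median of 0.01, with 15 of 35 lower. Camk2a, the calcium-activated kinase gene that acts behind the receptor, was at 1334 ± 172 TPM in KO and 1519 ± 117 TPM in WT (-0.20 ± 0.08 SE; adjusted p = 0.388). Calm3, a calmodulin gene, had 0.16 (adjusted p = 0.401). Regulators of subunit gene transcription and translation had a median of -0.01, with 7 of 14 lower. Neurod2, a transcription factor gene, had 0.20, Cpeb3, an RNA-binding repressor gene, had -0.35, and Sp1, which binds the GC box, had -0.20 (adjusted p = 0.381, 0.387 and 0.413).

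**Figure D5:**
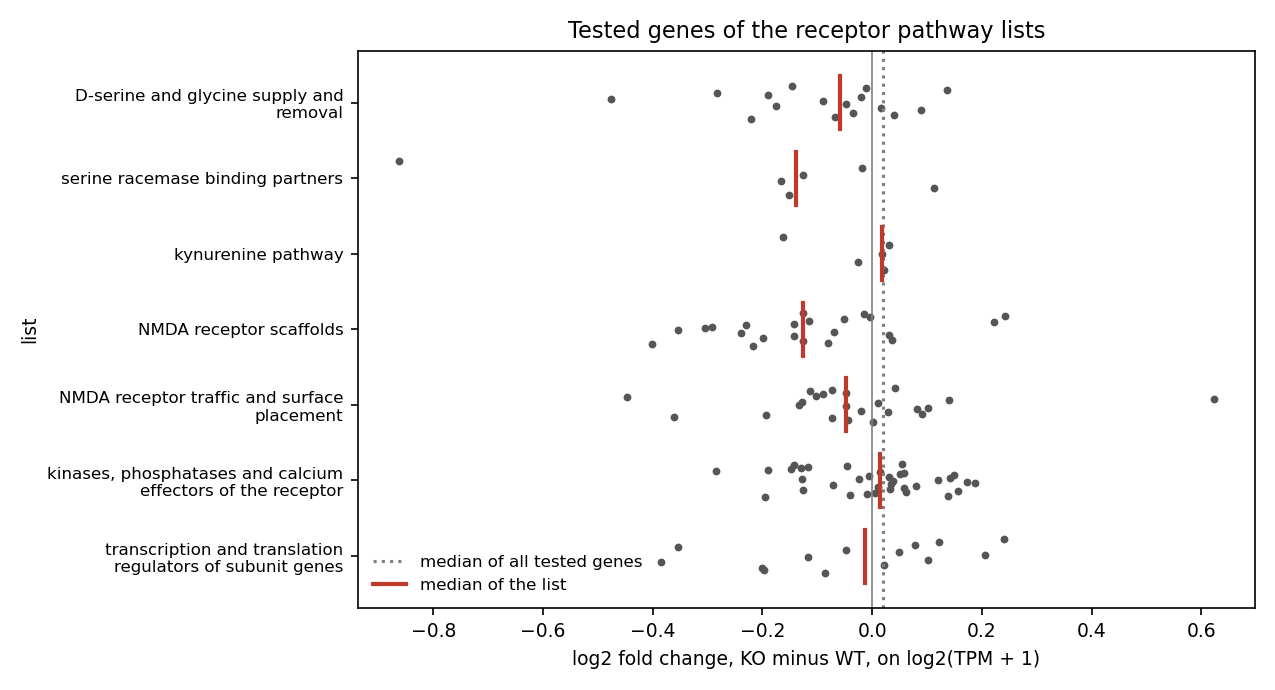
Log2 fold change, KO minus WT, of each tested gene (grey) in 7 lists around the receptor, with the list median (red) and the median of all tested genes (dotted, 0.02). Medians lie between -0.14 (serine racemase binding partners) and 0.02 (kynurenine pathway).

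Markers of the cells in the punch were read from 10 lists, with 0 genes passing over all genes in any of them (limma). An unadjusted limma p under 0.05 was reached by 11.9% of all tested genes. Lower at that limit were 10 of 12 endothelial, 6 of 10 mural, 9 of 15 astrocyte and 4 of 10 precursor markers. So were 4 of 14 inhibitory neuron and 3 of 12 microglia markers, and in these 6 lists 0 were higher. Excitatory neuron markers had 2 lower and 4 higher, pan-neuron and striatal markers 1 each way and oligodendrocyte markers 0. All 14 excitatory, 14 inhibitory and 9 pan-neuron markers reached the mean of 1 TPM needed to be tested. Medians were 0.11 for excitatory neurons (Cux2 -0.54, Neurod2 0.20), -0.16 for inhibitory neurons (Gad2 -0.20, Gad1 -0.21) and -0.01 for pan-neuron genes (Map2 -0.42, Stmn2 0.22). They were -0.24 for astrocytes (Glul -0.25, Mlc1 -0.21), -0.05 for oligodendrocytes (Aspa 0.16, Mag -0.19) and -0.20 for their precursors (Cspg4 -0.53, Olig2 -0.22). Microglia stood at -0.12 (Sall1 -0.30, Ctss -0.17), endothelial genes at -0.48 (Slco1c1 -0.44, Cdh5 -0.57) and mural genes at -0.33 (Myh11 -0.66, Acta2 -0.63). Striatal neuron markers, which a punch could reach, had a median of 0.12 (Pde10a -0.38, Gpr6 0.24).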

How the data were processed

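The deposited values are TPM per gene and library, made by the authors. The submitters' processing notes name the tools Trimmomatic, HISAT2 and StringTie and the build mm10, per the labels; strand setting, parameters, versions and annotation are not given there. TPM is relative to the library's total and keeps no read depth, so no count model was used. The table held 54838 Ensembl IDs, of which GENCODE M21 (mm10) named 54809; 111 rows that share a symbol were summed into it. Genes averaging 1 TPM or more were analysed as log2(TPM + 1), a scale that understates changes of low genes, with limma 3.58.1 in R 4.3.3 (intensity trend, all libraries, no block; adjusted p under 0.05 over 18655 genes). Ratios were compared by exact permutation in Python 3.11.15, and correlations by 100000 shuffles within groups. Pearson pairwise correlations of whole libraries were 0.980 to 0.992, and 0 pairs were identical.

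Members, lists and tests were chosen with earlier results of these data known. Named were the 7 members, the deleted genes as a check of the labels, up to 3 genes of lowest p per pathway list and 2 per cell type list, 6 genes by name (Grin3b, Dao, Slc7a10, Slc6a9, Phgdh, Dlg4) and 2 genes most like each member; Mtmr10 and Fan1 were added to the check, and Grin1os, Gm45441, Tsr1 and Smg6 for their overlap with members, after values were seen. A further gene chosen by this rule is left out here. On simulated KO minus WT data over 18655 independent genes the test recovered 92%, 66%, 62% and 88% of 50 genes changed to 0.5-, 0.7-, 1.4- and 2-fold, with 10 calls among unchanged genes. The more genes pass, the easier the adjusted threshold is to reach. In the real data 5 genes passed, so these shares overstate the recovery to be expected there. Alternatives were other pseudocounts, filters, scalings, weights, variance priors, a replicate block and left-out libraries.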

Additional observations from a re-analysis of the deposited data

Results flagged for a closer look

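In WT 3 the ratio of Grin2c plus Grin2d to Grin2a plus Grin2b was 0.238, against 0.162 to 0.194 in the other 6 WT libraries. Its gap to the nearest WT library was 0.582 of the range of the group, above the 95% limit of 0.568 for 7 samples. This was 1 of 22 groups of values examined in this way, and chance flags about 1 in 20 groups. WT 3 also had the lowest Grin2a and Grin2b values of the WT libraries.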

How the results depend on the processing

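The 7 genes stayed short of the threshold under every alternative run, and the count past it was 0 throughout. Grin1, Grin2a, Grin2b, Grin2c and Srr kept their direction in all of them. Without 1 library, log2 fold changes lay between -0.14 and -0.07 for Grin1, -0.24 and -0.10 for Grin2a, -0.18 and -0.04 for Grin2b, -0.20 and -0.11 for Grin2c, -0.0285 and 0.0393 for Grin2d, -0.10 and -0.01 for Grin3a, and 0.07 and 0.15 for Srr. Grin2d turned to -0.0117 with median-of-ratios scaling and to -0.0172 without mitochondrially encoded genes. Without KO 1 and KO 8, Grin3a turned to 0.0291, the ratio of Grin1 to summed GluN2 genes to -0.0384 (log2 difference) and that of Grin2c plus Grin2d to Grin2a plus Grin2b to -0.0190; without 1 library these ratios ranged from -0.00558 to 0.0750 and from -0.0222 to 0.110. The cause of these turns was not tested. Without WT 3 the median of the transcription and translation regulators was -0.108, in a range from -0.108 to 0.00724 without 1 library. With the replicate number as a block, Grin1 was at -0.14, Grin2a at -0.21, Grin2b at -0.12, Grin2c at -0.18, Grin2d at 0.04, Grin3a at -0.01 and Srr at 0.15. The limma adjusted p ran from 0.285 to 0.967 (unadjusted 0.0445 for Grin2a and 0.0280 for Grin2c). KO 8 has no same-numbered WT library, so the block takes it out of the contrast, and these log2 fold changes equal those without KO 8. With the block 8 genes of the whole table passed, against 5 in the main fit and 6 without KO 8 and no block. The labels do not say whether the numbers pair the samples. Same-numbered libraries had correlations of deviations from -0.0425 to 0.122, which were not compared with those of differently numbered libraries. The block moved no call of the 4 ratios (Grin2a over Grin2b -0.09, as without KO 8, adjusted exact p = 0.438). The unknown depth limits the precision that can be stated for the lowest gene, Grin2d.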
